A study of Mus musculus with 8 samples.

Results

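Cytosolic ribosomal proteins are described here in microglia, macrophages that reside in neural tissue, and in macrophages that had infiltrated the injured mouse retina. Members were chosen by gene symbol: those starting with Rpl or Rps and a digit, together with Rpsa, Rplp0, Rplp1 and Rplp2, leaving out the kinases named Rps6k and symbols marked as pseudogenes. This gave 86 members of the 22558 symbols in the tables. Of these, 46 belong to the large subunit of the ribosome and 31 to the small subunit. The remaining 9 are paralogs or proteins that are not subunits (Rpl3l, Rpl7l1, Rpl10l, Rpl22l1, Rpl36al, Rpl39l, Rps4y2, Rps19bp1 and Rps27l).

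The 8 libraries of messenger RNA were 4 of microglia, numbered 1 to 4, and 4 of infiltrating macrophages, numbered 5 to 8. Every mouse was heterozygous for Msi1-CreERT2, a Cre recombinase expressed from the Msi1 gene and activated by tamoxifen, and for R26R-DTA, which makes diphtheria toxin A in cells where Cre has acted. All groups therefore carried the injury alleles, and were about 5 months old, of mixed C57BL/6; 129 background, with the retina collected on day 7 after injury. No uninjured retina is part of this comparison, and whether each library came from separate animals is not given in the sources used here, so the p-values reflect the variation among these libraries alone, and it may be technical.

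The ribosome is built from ribosomal RNA and a fixed set of proteins, most of them present in a single copy per ribosome. In mammals each protein is usually encoded by 1 expressed gene, and cells make these transcripts in great excess over most others. Their messages begin with a run of pyrimidines (C or T in DNA), the 5' terminal oligopyrimidine motif, through which nutrient signalling by mTORC1 controls their translation together. Many also left intronless copies in the genome by reverse transcription.

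The libraries differed before any gene was compared. Values are FPKM, in which fragments are divided by transcript length and by library size, and they summed to between 207154 and 512101 per library. The 6 microglial markers summed to 1892 to 2385 FPKM in microglia and 680 to 1907 FPKM in macrophages, and Sall1 was at most 0.0352 FPKM in macrophages. The 5 markers of monocyte-derived macrophages summed to 37.5 to 145 FPKM in microglia and 2244 to 7545 FPKM in macrophages, so that the labels and the markers went together. Haemoglobin genes summed to 2435 FPKM in microglia 3, to 160 and 165 in microglia 1 and 2, and to between 0.581 and 23.7 in the other libraries. The 4 Y-linked genes summed to between 11.7 and 25.8 FPKM in microglia 1 to 3 and to at most 1.97 in the other libraries. The rod and cone markers summed to 17.9 to 118 FPKM in microglia and 2.67 to 51.0 FPKM in macrophages. Both neutrophil markers, S100a8 and S100a9, had 0 FPKM in all 4 microglial libraries and summed to 40.3 to 174 FPKM in macrophages. Microglia 2 held 5995 genes at 1 FPKM or more, the lowest number of the 8 libraries.

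The sequence around the start of the transcript is shown first, since the selection of the members did not use it and a pyrimidine run is known from many of these genes. RefSeq promoters of GRCm38.p6 were matched by symbol for 64 of the 86 members. Each line gives the 50 bases centred on the annotated start, read on the strand of the gene, with its longest run of pyrimidines in capitals. Rps18, Rplp2, Rpl38, Rpl39, Rpl4, Rplp0, Rpsa and Rpl41 are shown because the results below turn on them, and Rpl35 because its run is long and its gene is among the most abundant.
Rpl35 (chr2:39005107-39005156, minus strand): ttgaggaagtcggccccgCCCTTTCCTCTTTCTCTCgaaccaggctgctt
Rps18 (chr17:33955641-33955690, minus strand): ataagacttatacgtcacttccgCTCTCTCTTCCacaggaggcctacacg
Rplp2 (chr7:141447626-141447675, plus strand): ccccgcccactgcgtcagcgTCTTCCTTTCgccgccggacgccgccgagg
Rpl38 (chr11:114668555-114668604, plus strand): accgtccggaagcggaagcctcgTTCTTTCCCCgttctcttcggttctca
Rpl39 (chrX:37085198-37085247, minus strand): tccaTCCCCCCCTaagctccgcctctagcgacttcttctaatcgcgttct
Rpl4 (chr9:64173362-64173411, plus strand): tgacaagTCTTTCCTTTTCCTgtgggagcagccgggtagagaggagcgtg
Rplp0 (chr5:115559442-115559491, plus strand): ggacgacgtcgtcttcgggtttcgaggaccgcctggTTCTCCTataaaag
Rpsa (chr9:120127741-120127790, plus strand): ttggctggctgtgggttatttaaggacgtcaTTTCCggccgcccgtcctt
Rpl41 (chr10:128549144-128549193, minus strand): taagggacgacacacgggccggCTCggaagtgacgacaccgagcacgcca

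A run of at least 8 pyrimidines lay in this 50-base window in 33 of 64 matched members (51.6%), against 22.3% of 27025 genes. On the opposite strand the share was 7.81% of members and 24.4% of all genes, so that the members' runs were more often on the sense strand, that of the gene. The window holds 25 bases on each side of the annotated start, so a run in it need not be part of the message. The runs of Rpl39 and Rpl4 shown above end before that start. CTTTCC stood in the window on the sense strand in 17.2% of members and 2.92% of all genes, and CTCTTT in 14.1% and 2.25%. Over the 300 bases of each promoter and on either strand, CCGGAAG was found in 39.1% of members and 9.93% of all genes, GGGCGG in 62.5% and 38.2%, and AAGATGGC in 9.38% and 3.19%. The motifs can share bases with the run or with each other. These are matches of letters in the annotated windows, and the longest run of Rpl41 in this window was 3 bases.

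Ribosomal protein transcripts stood at similar average levels in the 2 populations and varied far more from library to library than between them. The geometric mean over the 75 structural subunit genes with at least 1 FPKM in every library was 160, 170, 283 and 116 FPKM in microglia 1 to 4 and 199, 290, 98.5 and 114 FPKM in macrophages 5 to 8. Microglia 3 and macrophage 6 were the high libraries, macrophage 7 the lowest, and the groups overlapped over nearly their whole range. The highest library was 2.94 times the lowest. Group averages were 182 ± 71.5 FPKM in microglia and 175 ± 88.0 FPKM in macrophages (SD, n = 4 each).

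As a share of the FPKM sum, all 86 members together took 6.31, 6.32, 9.02 and 4.95% in microglia and 7.61, 6.66, 5.78 and 5.53% in macrophages. The highest and the lowest share were both microglial, so that the macrophage values lay within the microglial range. The means were 6.65 ± 1.71% and 6.39 ± 0.943% (SD, n = 4 each). Macrophage 6 was high in its geometric mean but not in its share, since its FPKM sum was also the largest. In bulk libraries, fewer cells of a type and less RNA per cell cannot be told apart.

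**Figure D1:**
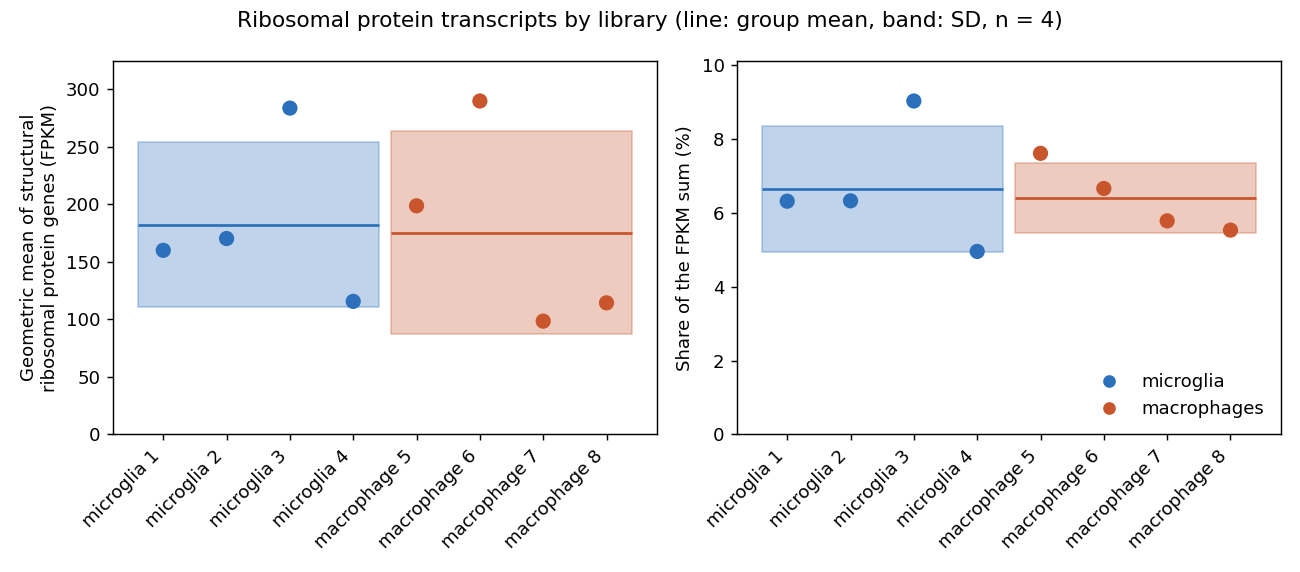
Geometric mean of the structural ribosomal protein genes (left, FPKM) and share of the FPKM sum held by all 86 members (right, percent) in each of the 8 libraries; points are libraries, lines group means and bands the SD (n = 4). Microglia 3 and macrophage 6 are highest on the left, and on the right the microglial libraries hold both the highest and the lowest share.

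The rise and fall was shared by nearly every member. Of 82 tested members, 40 were highest in microglia 3 and 38 in macrophage 6, while 49 were lowest in macrophage 7 and 14 each in macrophage 8 and microglia 4. The FPKM sum of all genes was also highest in macrophage 6 (512101) and microglia 3 (392952), and lowest in macrophage 7 (207154) and macrophage 8 (242232). The SD of a member over the 8 libraries had a median of 0.64 on the log2 scale. Over the 3914 tested genes with at least 1 FPKM in every library, that median was 0.84. After each library was rescaled to the same geometric mean of members, the members' median was 0.25. That rescaling used the members' own values, which by itself narrows their spread. Haemoglobin genes summed to 2435 FPKM in microglia 3 and to 23.7 FPKM in macrophage 6, and their part in the members' levels was not tested. With a term for haemoglobin expression in the fit, the median log2 fold change, described next, was 0.32 for members and 0.31 for all tested genes.

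**Figure D2:**
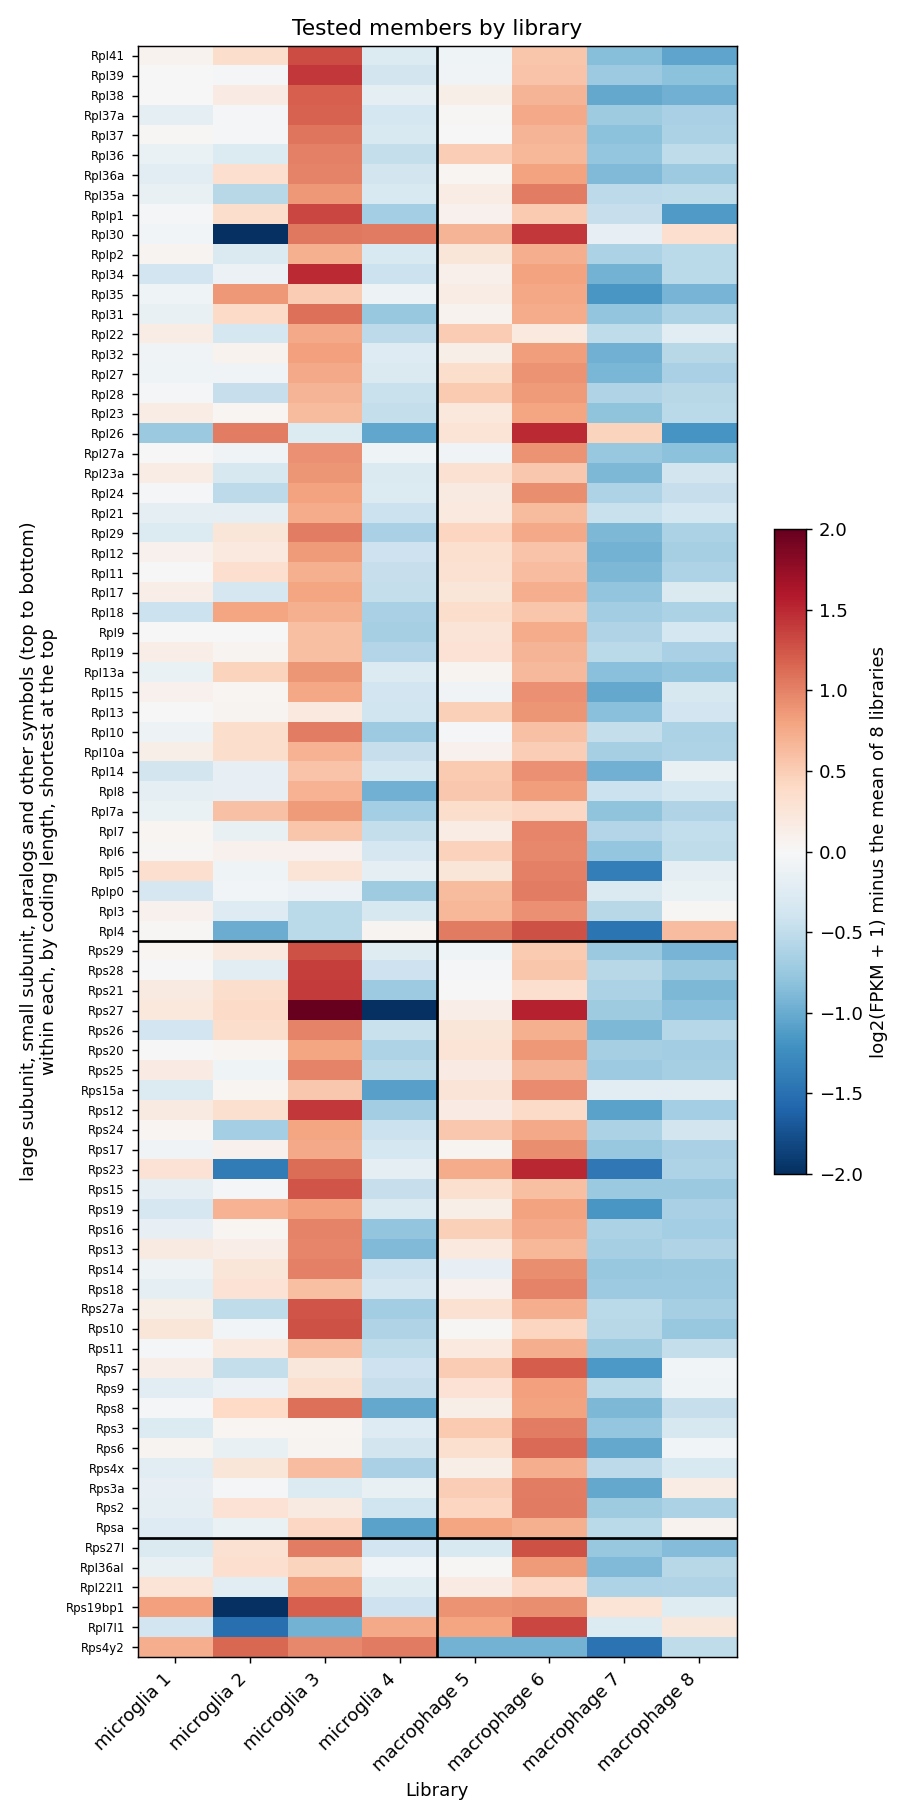
Heatmap of log2(FPKM + 1) minus the gene's mean of 8 libraries for tested members (rows; large subunit, small subunit, then other symbols, each from the shortest to the longest coding sequence, with Rpl41, which has no coding length in the annotation used, placed first) in 8 libraries (columns). The columns of microglia 3 and macrophage 6 are high over most rows, those of macrophages 7 and 8 low, and Rps4y2 in the last row is high in all 4 microglial libraries.

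No member passed the test between the populations. The test was limma on log2(FPKM + 1), with Benjamini-Hochberg adjustment over the 9307 genes that had at least 1 FPKM in at least 4 libraries, and a gene was called at an adjusted p below 0.05. Of the 82 members tested, 0 were called and 1 had an unadjusted p below 0.05. Over all tested genes, 2.39% were called (222 genes, 156 higher in macrophages and 66 lower) and 15.0% had an unadjusted p below 0.05. The share of calls that were higher in macrophages was 70.3%, and it was 59.9%, 55.9% and 53.8% with upper-quartile, median-of-ratios and quantile scaling. Groups did not overlap in 1 of the 82 members (Rps4y2), against 7.67% of all tested genes.

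The absence of a call does not make the levels equal. The 95% interval of a member's log2 fold change had a median half-width of 1.02, and so differences up to 2.03-fold lay inside the interval of a typical member around no change. The log2 fold change, macrophages minus microglia, had a median of -0.17 over the 82 members, with 29 positive and 53 negative. Over all tested genes the median was 0.37, and 67.1% were positive. The members' median was -0.17 for the 45 tested large subunit genes (15 positive) and -0.11 for the 31 small subunit genes (12 positive).

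The sign of that median rested on single libraries. It was 0.09 without microglia 3, 0.07 without macrophage 7, 0.00 without macrophage 8 and -0.45 without macrophage 6. Over all tested genes the median in these fits was 0.38, 0.56, 0.34 and 0.19, in the same order. Scaling moved the members' median also, to -0.01 with an equal FPKM sum and -0.27 with upper-quartile scaling. It was -0.43 with median-of-ratios scaling and 0.04 with quantile normalization. The same settings moved the median of all tested genes to 0.48, 0.28, 0.16 and -0.03.

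The most abundant members came from both subunits. Rpl41, the smallest protein of the large subunit, averaged 1557 FPKM over the 8 libraries, the highest of all members. It was followed by the small subunit proteins Rps18 at 1135, Rps14 at 880 and Rps9 at 800 FPKM, and by the acidic stalk protein Rplp1 at 773 FPKM. The large subunit proteins Rpl35 and Rpl32 averaged 701 and 690 FPKM, and the small subunit protein Rps28 averaged 664 FPKM. Over the 77 structural members the median was 207 FPKM, and 54 averaged over 100 FPKM.

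Rps18, a protein of the small subunit head, gives the typical pattern. It stood at 927, 1277, 1585 and 829 FPKM in microglia and at 1117, 2084, 634 and 629 FPKM in macrophages. The macrophage libraries held both the highest and the lowest values, and the groups overlapped. Its log2 fold change was -0.19 ± 0.47 (SE, limma adjusted p = 0.888), with a 95% interval from -1.15 to 0.78.

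Rps4y2 was the member with the largest difference. This paralog of the X-linked small subunit gene Rps4x lies on chromosome 6 despite the letter in its name (chr6:148303178-148304118 in mm9), where GENCODE vM1 gives it 1 exon, while Rps4x has 7. It stood at 26.7, 36.0, 31.5 and 33.5 FPKM in microglia and at 7.71, 7.65, 5.03 and 10.7 FPKM in macrophages. All 4 microglial libraries were above all 4 macrophage libraries. The means were 31.9 ± 3.98 and 7.78 ± 2.32 FPKM (SD, n = 4 each), 4.11 times higher in microglia. The log2 fold change was -1.94 ± 0.56 (SE) with a limma adjusted p of 0.0695 and an unadjusted p of 0.00211, just outside the threshold.

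Whether Rps4y2 passed depended on the scaling of the libraries. Its limma adjusted p was 0.0363 with an equal FPKM sum, 0.0372 when small RNA was left out of that sum, 0.0163 with upper-quartile, 0.0119 with median-of-ratios and 0.00882 with quantile scaling. These 5 of 24 alternatives called 3.58%, 3.57%, 2.92%, 2.65% and 3.42% of all tested genes. The log2 fold change ran from -2.18 to -1.54 over all 24. The highest limma adjusted p, 0.770, came with a term for Y-linked expression, and so did the largest difference, -2.18. That fit called 25 of 9307 tested genes. Y-linked sums were high only in microglia 1 to 3, so the term and the group cannot be fully told apart. Microglia 4, whose Y-linked sum was 0.0533 FPKM as in the macrophage libraries, held 33.5 FPKM of Rps4y2.

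Rps4x itself did not follow. It stood at 258, 353, 458 and 190 FPKM in microglia and at 323, 493, 207 and 240 FPKM in macrophages, with the groups overlapping. The log2 fold change was 0.0004 ± 0.46 (SE, limma adjusted p = 0.999), with a 95% interval from -0.96 to 0.96. Rps4y2 made up 9.38, 9.25, 6.44 and 15.0% of the summed FPKM of the pair in microglia and 2.33, 1.53, 2.37 and 4.27% in macrophages. These shares did not overlap either, and the highest was in microglia 4.

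The coding sequences of Rps4x and Rps4y2 matched at 632 of 789 aligned bases (80.1%), with a longest identical stretch of 35 bases, and no other place in the NCBI m37 genome matched the Rps4y2 coding sequence at 95% identity or more over 80% of its length. The first 120 coding bases from GENCODE vM1, are shown with the 26 differing bases in capitals.
Rps4x: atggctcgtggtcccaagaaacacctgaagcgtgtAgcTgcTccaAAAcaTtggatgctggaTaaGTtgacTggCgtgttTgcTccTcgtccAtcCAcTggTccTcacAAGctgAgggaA
Rps4y2: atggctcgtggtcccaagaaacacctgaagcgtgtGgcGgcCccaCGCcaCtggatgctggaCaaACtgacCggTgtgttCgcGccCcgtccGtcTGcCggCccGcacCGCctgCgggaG
Their first 35 bases are identical, and all 26 differences lie after them.

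**Figure D3:**
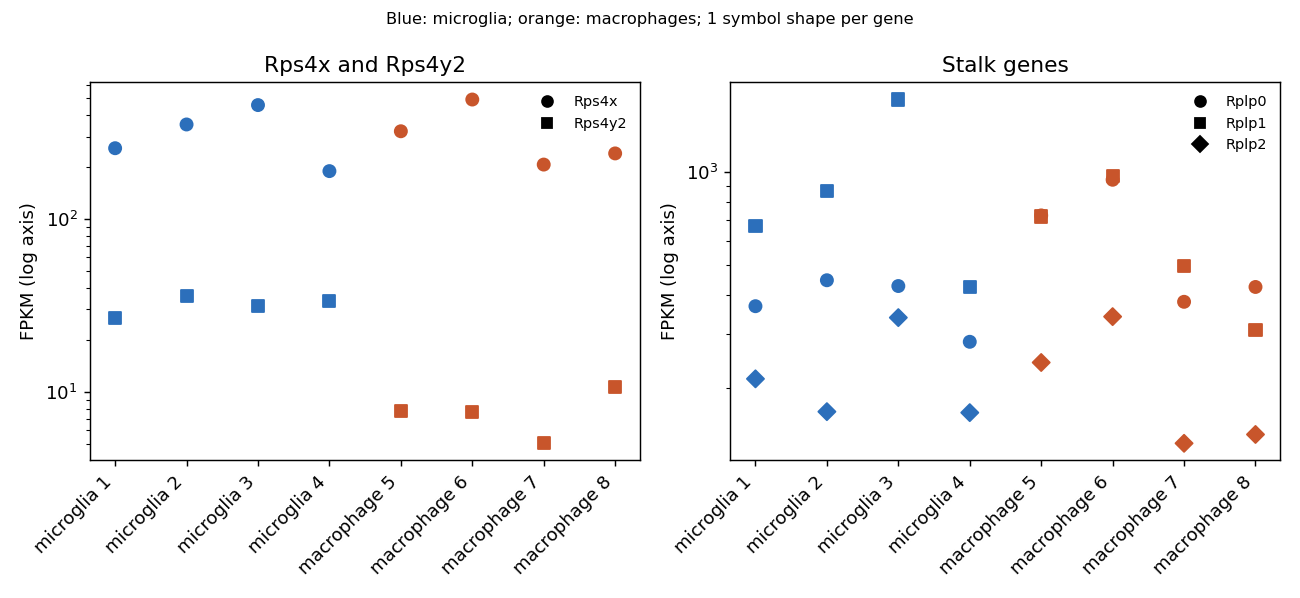
FPKM on a log axis in each library of Rps4x and Rps4y2 (left) and of the stalk genes Rplp0, Rplp1 and Rplp2 (right); blue points are microglia and orange points macrophages. Rps4y2 is lower in the 4 macrophage libraries while Rps4x is not, and Rplp0 lies well below Rplp1 in microglia and close to it in macrophages.

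The stalk of the large subunit recruits and activates the translation factors, and its genes did not keep 1 ratio. Rplp0, the scaffold of the stalk, stood at 369, 447, 429 and 283 FPKM in microglia and at 725, 945, 381 and 426 FPKM in macrophages. The 2 highest values were macrophages 5 and 6, and the groups overlapped. The log2 fold change of 0.62 ± 0.45 (SE) was not called (limma adjusted p = 0.552). It was called in 1 of 24 alternatives, quantile normalization, at 0.90 with a limma adjusted p of 0.0435. That alternative called 3.42% of all tested genes.

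Rplp1 and Rplp2 encode the acidic proteins that bind to Rplp0. Rplp1 stood at 670, 868, 1718 and 425 FPKM in microglia and at 719, 974, 496 and 310 in macrophages, and its log2 fold change was -0.49 ± 0.49 (limma adjusted p = 0.687). Rplp2 had a log2 fold change of -0.10 ± 0.47 (limma adjusted p = 0.950). Rpl12, which sits with Rplp0 at the base of the stalk, had -0.36 ± 0.49 (limma adjusted p = 0.782). The 3 genes overlapped between the groups.

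The ratio of Rplp0 to Rplp1 was 0.551, 0.516, 0.249 and 0.665 in microglia and 1.01, 0.970, 0.768 and 1.37 in macrophages. The ratio to Rplp2 was 1.72, 2.66, 1.27 and 1.69 in microglia and 2.99, 2.77, 2.87 and 2.998 in macrophages. Neither ratio overlapped between the groups, and in both the lowest value was in microglia 3. Rplp0 has 317 codons, Rplp1 114 and Rplp2 115, so both ratios set a longer member against a shorter one. Longer structural members tended to have the larger fold changes, as described below. The part of length in these ratios was not tested. Among all ratios of 2 structural members, 317 of 2775 (11.4%) did not overlap. Rplp0 took part in 49 such ratios of its 74 (66.2%), the most of any member, followed by Rpl41 and the small subunit gene Rps15a with 35 each, Rpsa with 29 and Rpl8 with 28. These counts were made on the same values and are a description.

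Set against the other members, by rescaling each library to an equal geometric mean of the 76 tested structural members, 0 of the 82 tested members were called and 3 had an unadjusted p below 0.05, against 2.25% and 14.9% of all tested genes. The 3 were Rps4y2 with a log2 difference of -1.88 (limma adjusted p = 0.0831), Rpl41 with -0.67 (limma adjusted p = 0.224) and Rplp0 with 0.67 (limma adjusted p = 0.301). After rescaling over the genes with at least 1 FPKM in every library, Rplp0 stood at 383, 437, 251 and 406 in microglia and 606, 542, 643 and 618 in macrophages. Rpl41 stood at 1494, 1703, 1994 and 1627 and at 1081, 1157, 1286 and 962. After this rescaling the groups did not overlap in 11 of 82 tested members, against 8.55% of all tested genes. Of all genes without overlap, 587 were higher in macrophages and 209 lower. The rescaling used the members' own values and narrowed their spread, so the shares are not a like comparison. Among the members, Rplp0, Rpsa, Rpl8 and Rps15a were higher in all macrophage libraries, and Rpl41, Rps29, Rpl38, Rpl37, Rpl12, Rpl13a and Rps4y2 were lower. In Rplp0 and Rpl41, microglia 3 was the library farthest from the macrophages.

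Members with the lowest fold changes after Rps4y2 encode mostly small proteins. Rpl41 stood at 1439, 1746, 3404 and 1133 FPKM in microglia and at 1293, 2017, 763 and 662 FPKM in macrophages. Microglia 3 was highest by far, and the groups overlapped. Its log2 fold change was -0.72 ± 0.47 (SE, limma adjusted p = 0.495). Rps29, a zinc-binding protein of the small subunit, had -0.63 ± 0.47, the small subunit protein Rps12 -0.60 ± 0.55 and Rpl38, known for its part in the translation of Hox messages, -0.60 ± 0.49, with limma adjusted p between 0.568 and 0.655.

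At the other end stood longer coding sequences and a gene near 0 in 1 library. Rpl4 and Rpl3, 2 of the longest large subunit proteins, had log2 fold changes of 0.73 ± 0.55 and 0.52 ± 0.45 (limma adjusted p = 0.566 and 0.630). Rpl4 stood at 188, 92.2, 126 and 192 FPKM in microglia and at 379, 446, 66.2 and 285 FPKM in macrophages, with macrophage 7 the lowest of all 8. Rpl30 had 1.13 ± 0.85 (limma adjusted p = 0.566), but this rested on microglia 2, where it was listed at 7.46e-05 FPKM, against 18.1 to 40.0 FPKM in the other microglial libraries and 16.8 to 51.6 FPKM in macrophages. Without microglia 2 the log2 fold change of Rpl30 was -0.11.

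Among the 75 structural members with a coding length in GENCODE vM1, log2 fold changes were larger in longer members. The 17 members under 120 codons had a median log2 fold change of -0.29, with 3 positive, and the 22 of at least 200 codons a median of 0.07, with 14 positive. Spearman's correlation between fold change and coding length was 0.47 over the 75 members and 0.16 over 8882 other tested genes; these are descriptions, since the genes share the same 8 libraries. Without microglia 3 the median of the short members was 0.03, and without macrophage 6 that of the long members was -0.24. The correlation was 0.28 without microglia 3, where that between coding length and a member's deviation was -0.70, against -0.10 to -0.03 in the other microglial libraries. In macrophages 5 and 8 it was 0.42 and 0.55, in macrophage 6 0.26, and in macrophage 7 -0.02.

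The median FPKM of the short members divided by that of the long members was 1.05, 1.06, 1.83 and 1.08 in microglia and 0.885, 0.854, 1.17 and 0.836 in macrophages. Microglia 3 and macrophage 7 were the highest of their groups, and macrophage 7 overlapped the microglial libraries. The same ratio over other genes was 4.45, 15.3, 5.65 and 3.38 in microglia and 3.17, 4.23, 3.48 and 2.23 in macrophages, where microglia 2 and not microglia 3 stood highest. The part of transcript length in the fold changes of single members was not tested.

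**Figure D4:**
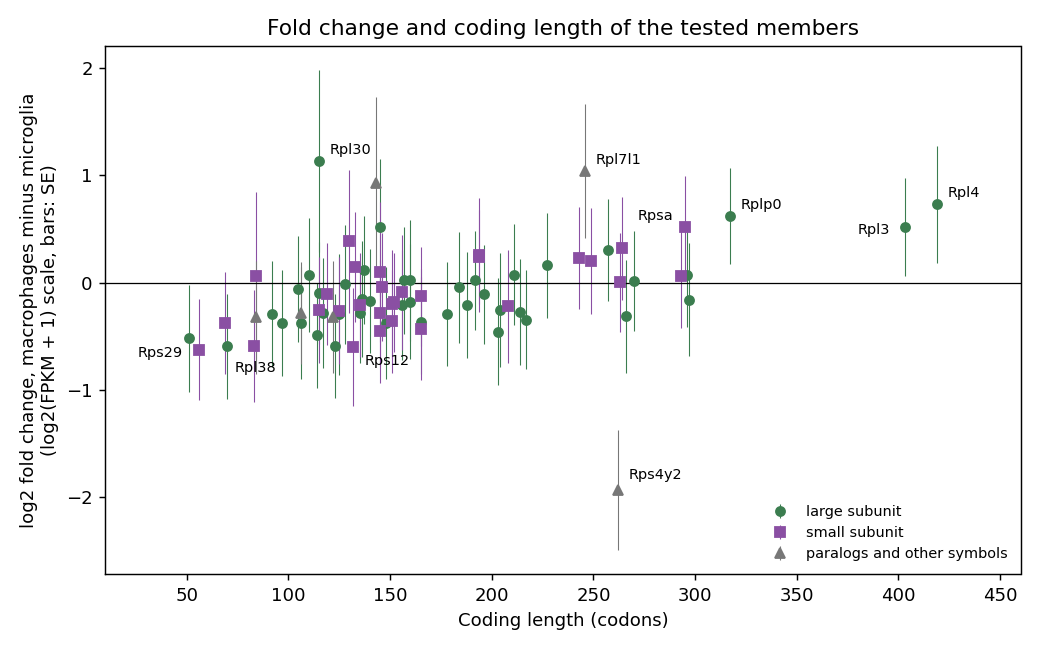
Log2 fold change (macrophages minus microglia, log2(FPKM + 1) scale, bars SE) of tested members against coding length in codons; circles are large subunit genes, squares small subunit genes and triangles paralogs and other symbols. Short members lie mostly below 0, Rpl3, Rpl4, Rplp0 and Rpsa above it, and Rps4y2 lies apart at -1.94.

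Several members have known roles outside the ribosome, and none of these differed between the populations by the test. Rpsa, also known as the laminin receptor, stood at 226, 248, 362 and 129 FPKM in microglia and at 466, 444, 187 and 284 FPKM in macrophages. Macrophages 5 and 6 were the highest, but macrophage 7 lay below 3 of the microglial libraries. The log2 fold change was 0.52 ± 0.48 (SE, limma adjusted p = 0.657), positive in all 24 alternatives and called in 0. Rpl5 and Rpl11, which bind Mdm2 with the 5S RNA when ribosome assembly is disturbed, had -0.16 ± 0.53 and -0.30 ± 0.49 (limma adjusted p = 0.923 and 0.821).

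Rpl13a, known from studies of myeloid cells for silencing inflammatory messages after interferon gamma, had a log2 fold change of -0.46 ± 0.50 (limma adjusted p = 0.715). Rps19, the gene most often mutated in Diamond-Blackfan anaemia, stood at 351, 718, 782 and 360 FPKM in microglia and at 477, 768, 197 and 281 FPKM in macrophages. Its groups overlapped, with a log2 fold change of -0.45 ± 0.49 (limma adjusted p = 0.720). Rps6, the substrate of S6 kinase, and Rps3, which also acts in DNA repair, had 0.20 ± 0.49 and 0.23 ± 0.48 (limma adjusted p = 0.887 and 0.864). Rps6 ran from 120 to 163 FPKM in microglia and from 76.6 to 346 FPKM in macrophages, a wider range in the second group around overlapping values.

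The paralogs other than Rps4y2 overlapped between the groups or were hardly present. Rpl36al was 2.41, 2.30, 1.57 and 2.86 times Rpl36a in microglia and 2.29, 2.36, 2.34 and 2.60 times in macrophages. The paralog was the more abundant of that pair in all 8 libraries. Rpl22l1 exceeded Rpl22 in the same way, by 2.04, 2.07, 1.96 and 2.32 times in microglia and by 1.47, 2.19, 1.75 and 1.43 times in macrophages. The groups overlapped, although 3 of 4 macrophage ratios lay below all microglial ones.

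Rps27l, a p53 target and paralog of Rps27, was also above its parent. The ratio was 2.91, 3.90, 1.81 and 29.3 in microglia and 3.02, 3.41, 4.05 and 4.16 in macrophages. The high ratio in microglia 4 came from Rps27, at 3.89 FPKM there against 41.7 to 169 FPKM in the other microglial libraries. The first 120 coding bases of this pair, from GENCODE vM1, are shown with their 28 differences in capitals.
Rps27: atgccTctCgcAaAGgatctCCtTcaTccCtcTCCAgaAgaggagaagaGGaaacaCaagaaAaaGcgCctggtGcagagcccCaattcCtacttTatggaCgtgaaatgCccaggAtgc
Rps27l: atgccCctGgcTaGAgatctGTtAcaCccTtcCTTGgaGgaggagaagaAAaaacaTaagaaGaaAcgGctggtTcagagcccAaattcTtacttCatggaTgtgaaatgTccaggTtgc
Over the whole coding sequence, 194 of 255 bases were identical (76.1%) and the longest identical stretch was 11 bases.

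The paralogs restricted to other tissues were near the limit of detection. Rpl3l, the muscle form of Rpl3, was listed at 0 in all 4 microglial libraries and at 0.200, 0.375, 1.25 and 0.155 FPKM in macrophages. Rpl10l and Rpl39l, testis forms of Rpl10 and Rpl39, had at most 0.118 FPKM and 0.763 FPKM in macrophages. In microglia each was high in a single library, Rpl10l at 3.54 FPKM in microglia 3 and Rpl39l at 6.25 FPKM in microglia 4. None of the 3 entered the test.

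Of the symbols that are not subunits, Rpl7l1, a factor of large subunit assembly, had a log2 fold change of 1.04 ± 0.62 (SE, limma adjusted p = 0.447). It stood at 12.3, 5.13, 8.09 and 28.4 FPKM in microglia and at 29.2, 43.1, 13.5 and 19.4 FPKM in macrophages. Microglia 4 lay within the macrophage range, so that the groups overlapped. Rps19bp1, which binds Rps19, had 0.93 ± 0.81 (limma adjusted p = 0.629) and was listed at 0 in microglia 2, without which the value was -0.07.

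Members with many near-identical copies in the genome had lower values. For the 76 structural members with a coding sequence, a search against NCBI m37 found 594 further intronless places. These matched over at least 80% of the length with at least 95% identity. The median was 6 places per gene. Rpl21 had the most, 56, and averaged 19.6 FPKM. The 18 structural members with at least 10 copies had a median of 71.1 FPKM, the 47 with 2 to 9 copies 255 FPKM, and the 11 with at most 1 copy 218 FPKM. Spearman's correlation between mean FPKM and copies was -0.40 over 76 members, as a description. How reads that match several places were counted is not given in the sources used here.

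The comparison between populations did not follow the copies. Spearman's correlation between log2 fold change and copies was 0.04 over the structural members tested. Rpl8 and Rps3, for which no such copy was found, had log2 fold changes of 0.31 and 0.23, and both overlapped between the groups. Rps2, with 29 copies, averaged 219 FPKM, so that a high number of copies did not always go with a low value. Rps15a, with 6 copies, averaged 7.21 FPKM.

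**Figure D5:**
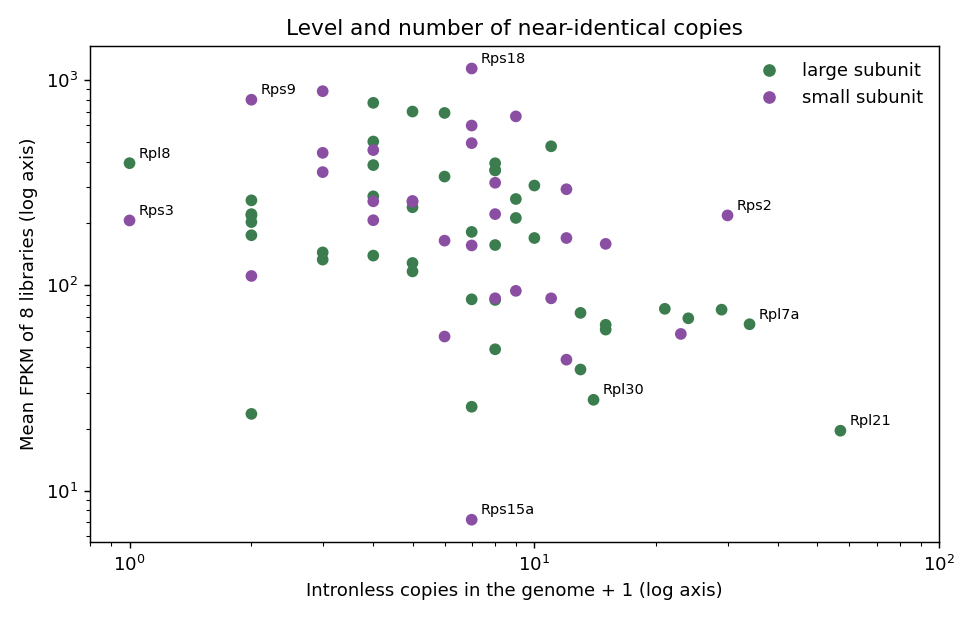
Mean FPKM of 8 libraries (log axis) against the number of intronless genomic copies plus 1 (log axis) for structural members with values shown; colours give the subunit. Rpl21, with 56 copies, averages 19.6 FPKM, while Rps2 stays at 219 FPKM with 29 copies and Rps15a averages 7.21 FPKM with 6.

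Among subunits that carry other names, Fau, which encodes Rps30 fused to a ubiquitin-like protein, had a log2 fold change of -0.31 ± 0.46 (limma adjusted p = 0.795). Gnb2l1, now called Rack1, had 0.07 ± 0.50 (limma adjusted p = 0.965). Neither was called.

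Of 37 initiation factors tested, 1 was called, beside 2.39% of all tested genes. It was Eif3d, a cap-binding subunit of initiation factor 3, which stood at 3.36, 0.367, 1.64 and 14.6 FPKM in microglia and at 36.3, 50.6, 20.3 and 28.02 FPKM in macrophages. All macrophage libraries were above all microglial ones, and Eif3d rose with a log2 fold change of 3.06 ± 0.71 (SE, limma adjusted p = 0.0177). It was called in 16 of 24 alternatives. The adjusted p was 0.0657, 0.0823 and 0.0570 without macrophage 5, 6 and 8, and 0.173 without microglia 2 and 3. It was 0.237 with no filter, 0.0770 with a pseudocount of 0.1, 0.472 with a term for haemoglobin and 0.9999 with a term for Y-linked expression. The list had a median of 0.43, beside 0.37 over all genes.

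The other translation lists had no called gene, beside 2.39% of all tested genes. The medians of these lists lay on either side of that of all genes, 0.37. Of 12 elongation factors, 0 were called, with a median log2 fold change of 0.29. Eef2, which moves the ribosome along the message, had 1.03 ± 0.46 (limma adjusted p = 0.293). It was called with quantile normalization (limma adjusted p = 0.0192), beside 3.42% of all tested genes. Eef1a1, which brings charged transfer RNA to the ribosome, ran from 798 to 1301 FPKM in microglia and from 425 to 1995 FPKM in macrophages. Of 76 mitochondrial ribosomal proteins 0 were called, with a median of 0.08, and Mrps21, the most abundant of them, had -0.81 ± 0.53 (limma adjusted p = 0.491).

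Genes that make ribosomes held 0 calls, beside 2.39% of all tested genes. The 44 tested ribosome biogenesis genes had a median of 0.55 (38 positive), the 12 RNA polymerase I genes 0.54 (9 positive) and the 11 snoRNA host genes 0.58 (8 positive). Over all tested genes the median was 0.37 and 67.1% were positive. Npm1, a nucleolar chaperone of ribosome assembly, had 0.35 ± 0.53 (limma adjusted p = 0.805), and Polr1d, a subunit of RNA polymerase I and III, had -0.41 ± 0.59 (limma adjusted p = 0.794). The 15 tested regulators of mTORC1 and of terminal oligopyrimidine messages had a median of 0.65 (12 positive), and Eif4ebp1, a translation repressor controlled by mTORC1, had 0.65 ± 0.55 (limma adjusted p = 0.609). With quantile normalization the medians of the last 4 lists were 0.18, -0.04, 0.29 and -0.13, in the order biogenesis, polymerase I, host genes and regulators. The members then had 0.04 and all tested genes -0.03. With that normalization 1 biogenesis gene, Nob1, was called (limma adjusted p = 0.0367), beside 3.42% of all tested genes. The difference between these lists and the ribosomal proteins was not tested.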

How the data were processed

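Per the file headers, the deposited tables hold an FPKM estimate made by the authors for each gene, with a locus and a status. Per the submitters' processing notes, bcl2fastq 1.8.4, Cufflinks 2.1.1 and the mm9 build were used; for the aligner and the annotation, the sources used here name none. FPKM is relative to library size and transcript length, so that abundant transcripts lower all others. Depth in reads is unknown.

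Rows of 1 symbol were summed (463 of 23021 rows repeat a symbol; no member does). The 173 symbols with a status other than OK in any library, none of them a member, were left out. The 9307 genes that reached 1 FPKM in 4 or more of 8 libraries were fitted on log2(FPKM + 1) with limma 3.58.1 (R 4.3.3). The test was two-sided, used an intensity trend and no covariate, and was adjusted over all tested genes by Benjamini and Hochberg. The pseudocount of 1 makes fold changes of low genes too small. The fit was tested on simulated data.

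Members, lists and tests were chosen with earlier results of these data known. The rule names the 5 most abundant members of each subunit, the 5 largest fold changes in each direction, stalk genes, members with a second role, paralogs with their parents, and the leading gene of each translation list. Rpl8, Rpl21, Rps2, Rps15a, Rpl37, Fau, Gnb2l1, Eef2 and Nob1 were named after their values were seen, as was the pairing of ratios with Rpl41. A few genes are not reported here by name or drawn, although counts include them. Alternatives changed the scaling, pseudocount, filter, row choice, trend, covariates and libraries. Genomic copies were found with blastn 2.17.0, and sequences come from RefSeq (GRCm38.p6) and GENCODE vM1.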

Additional observations from a re-analysis of the deposited data

Results flagged for a closer look

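Of 88 group values checked, 9 had a single library whose gap to the nearest of the other 3 exceeded Dixon's 95% critical share of the group's range; chance gives this in about 1 in 20 groups. Over all 86 members it was met in 18 of 172 group values (10.5%). In microglia 3, the values were 785 FPKM for Rpl38, 622 FPKM for Rpl39, 1543 FPKM for Rps28 and 3.54 FPKM for Rpl10l, each the highest of the microglial libraries. The ratio of short to long members was also highest in microglia 3, at 1.83, and within macrophages it was highest in macrophage 7, at 1.17. Rpl39l stood at 6.25 FPKM in microglia 4 and at 0.763 FPKM in macrophage 7. Rps27l stood at 364 FPKM in macrophage 6, against 81.9 to 120 FPKM in the other macrophage libraries.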

How the results depend on the processing

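No paired analysis was made. The groups share no replicate numbers, and whether libraries of both groups came from the same animals is not given in the sources used here. In 24 alternatives, the number of members called was 0 except that 1 was lower in macrophages, Rps4y2, with an equal FPKM sum, with that sum taken without small RNA, and with upper-quartile, median-of-ratios and quantile scaling, and that 1 was higher, Rplp0, with quantile normalization. Relative to the other members, 0 were called in each of 19 alternatives. The number of all genes called was 222, and it was 132 with at least 5 FPKM required, 51 with no filter, 136 with a pseudocount of 0.1, 25 with a term for Y-linked expression, 61 with a term for haemoglobin expression, and 118 to 257 when 1 library was left out, with 118 without macrophage 8 and 121 without macrophage 5. The median log2 fold change of members ran from -0.45 without macrophage 6 to 0.32 with the haemoglobin term. It was -0.34 without microglia 4, 0.19 without microglia 2 and 3, and 0.10 with the Y-linked term. Over all tested genes the median in these fits was 0.19, 0.31, 0.44, 0.18 and 0.09, in the same order. Without microglia 2, Rpl30 and Rps19bp1 turned from positive to negative, to -0.11 and -0.07. The causes were not tested. The share of members was 8.34% in microglia and 7.67% in macrophages when the 10 most abundant other genes were left out of the sum. Rescaling the relative fit over members with at least 1 FPKM everywhere, and leaving out only symbols with a FAIL status, were chosen after seeing the data. With 4 libraries a group, a typical member's 95% interval spans 1.02 on the log2 scale to either side.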
